A study of Mus musculus with 12 samples.

Results

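Corpus callosum, the white matter that links the hemispheres, was profiled by bulk RNA sequencing in mice whose microglia lack the aryl hydrocarbon receptor (AHR) and in wild-type mice. The contrast described here is the one between both genotypes under cuprizone. It uses 6 of the 12 libraries of the series, namely 3 labelled AHR CKO and 3 labelled WT, all of cuprizone-treated tissue. The other 6, namely 3 AHR CKO and 3 WT libraries labelled as controls (Ctrl), show the genotype difference without cuprizone. All genes with at least 1 FPKM (fragments normalised for gene length and sequencing depth) in at least 3 of the 6 cuprizone libraries were compared, which made 13435 of the 15584 genes listed. Single libraries are named as in the labels, WT CPZ1 to CPZ3 and AHR CKO CPZ1 to CPZ3 under cuprizone, and WT Ctrl1 to Ctrl3 and AHR CKO Ctrl1 to Ctrl3 without it. The labels give no strain, sex or age. The sources used here do not give the Cre line, the deleted part of Ahr, the alleles the WT mice carried, the dose and length of cuprizone feeding, or whether each library came from 1 animal. The p-values therefore measure only the spread between these libraries, which may be technical.

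Under cuprizone the AHR CKO tissue held lower levels of the chaperones of the endoplasmic reticulum than WT tissue, with 16 of 20 tested genes passing the test as lower against 11.1% of all genes tested. Heat shock genes (9 of 15), genes of unstimulated microglia (8 of 19), lysosomal genes (7 of 32) and genes of disease-associated microglia (5 of 27) passed as lower too. Interferon-stimulated effector genes (14 of 47), ATF4 targets (9 of 26) and genes of mature oligodendrocytes (5 of 23) passed as higher, against 9.35% of all genes tested. A correction for transcript length is described below. Of the lists given as lower, in their order, 15, 8, 7, 6 and 4 genes passed both before and after it, against 4.06% of all genes tested. Of the lists given as higher 4, 5 and 2 genes did so, against 2.39%. Most of these counts depended on single libraries, as given with each list. In bulk tissue, fewer cells of a type and less RNA per cell cannot be told apart.

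AHR is a ligand-activated transcription factor that binds small molecules such as tryptophan metabolites and environmental pollutants. With its partner ARNT it switches on detoxifying enzymes of the cytochrome P450 family and its own repressor, AHRR. Microglia are the resident macrophages of the brain. They survey the tissue, and after myelin is damaged they engulf and digest its debris. Cuprizone is a copper chelator that kills oligodendrocytes, the myelin-forming cells, and the corpus callosum is the tract most often examined in this model.

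Ahr did not separate the genotypes in this tissue. It was listed at 1.73, 1.85 and 2.01 FPKM in WT and 1.48, 1.76 and 2.57 FPKM in AHR CKO cuprizone libraries (log2 difference 0.021, standard error 0.16, adjusted p = 0.937). The groups overlapped. The deleted exons are unknown here, and cells other than microglia keep the gene, so Ahr does not check the labels. Of the AHR targets, Cyp1b1, a P450 enzyme, was listed at 2.06, 0.938 and 1.69 FPKM in WT and 1.42, 3.15 and 5.58 FPKM in AHR CKO cuprizone libraries (log2 difference 0.68, adjusted p = 0.109). AHR CKO CPZ1 lay among the WT values, and without it the adjusted p was 0.0302. Tiparp, a feedback inhibitor of AHR, had a log2 difference of 0.069 (adjusted p = 0.666), and Nqo1, a quinone reductase, one of 0.46 (adjusted p = 0.116). Ahrr stayed below 1 FPKM in all 6 libraries, between 0.106 and 0.342, and was not tested. Cyp1a1 was not analysed here. Of the 12 tested genes of the AHR pathway list, 1 passed as higher and 0 as lower, and none passed on both scales. Without WT CPZ1, CPZ2 or CPZ3 the counts were 0 higher and 0 lower, 2 higher and 0 lower, and 1 higher and 0 lower, and without AHR CKO CPZ1, CPZ2 or CPZ3 they were 1 higher and 0 lower, 0 higher and 0 lower, and 3 higher and 1 lower.

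Libraries of 1 group correlated across genes with Pearson's r between 0.971 and 0.989, and WT with AHR CKO cuprizone libraries with r between 0.949 and 0.977. FPKM totals ran from 447156 to 467946 in the WT and from 484502 to 519470 in the AHR CKO cuprizone libraries. The values of lowly expressed genes point to 12200000 to 14900000 fragments per library, a rough estimate from 9 to 26 genes each. The tissue held the transcripts that define its main cells: the 14 structural myelin genes summed to 3539 to 4271 FPKM in WT and 4794 to 5773 in AHR CKO under cuprizone, and the 19 genes of unstimulated microglia to 749.6 to 1168 and 587 to 760.3. Genes of neighbouring structures varied between libraries. The 13 choroid plexus markers summed to 59.9 to 3035 FPKM in WT and 1025 to 3792 in AHR CKO, the 14 striatal markers to 633 to 1231 and 1063 to 2074, and the 5 red blood cell genes, a list chosen after values were seen, to 126 to 506 and 1.25 to 54.3. No choroid plexus or striatal gene passed in limma's test, with median log2 differences of 0.56 and 0.68 and 0 and 2 genes higher at an unadjusted p under 0.05. AHR CKO CPZ1 stood apart from CPZ2 and CPZ3 in microglial genes and in the length trend described next. For many lists the calls are therefore also given without it, and for the microglial and lysosomal lists the medians too.

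The genotype difference depended on transcript length. Across the 13329 tested genes with a known length, the log2 difference (AHR CKO minus WT, on log2(FPKM + 1)) fell with length, with a Spearman rho of -0.559 under cuprizone. In the shortest 10% of genes, from 174 to 1430 nt, the median difference was 0.33, and in the longest 10%, from 6886 to 123179 nt, it was -0.33. The same trend was present in control tissue, in the other 6 libraries, with a rho of -0.509. Within the cuprizone libraries, a gene's deviation from its mean rose with length in the 3 WT libraries (rho 0.426, 0.339 and 0.441) and fell with length in the 3 AHR CKO libraries (rho -0.535, -0.403 and -0.23), most in AHR CKO CPZ1. The groups did not overlap in this measure, so genotype and length trend cannot be told apart over all genes. Each result is therefore given on 2 scales, as deposited and after removal of a smooth length trend from each library, which brought rho to 0.001. Below, a gene is said to pass on both scales where it passed on each and in the same direction. Statements on calls without single libraries refer to the deposited values unless the corrected ones are named.

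**Figure D1:**
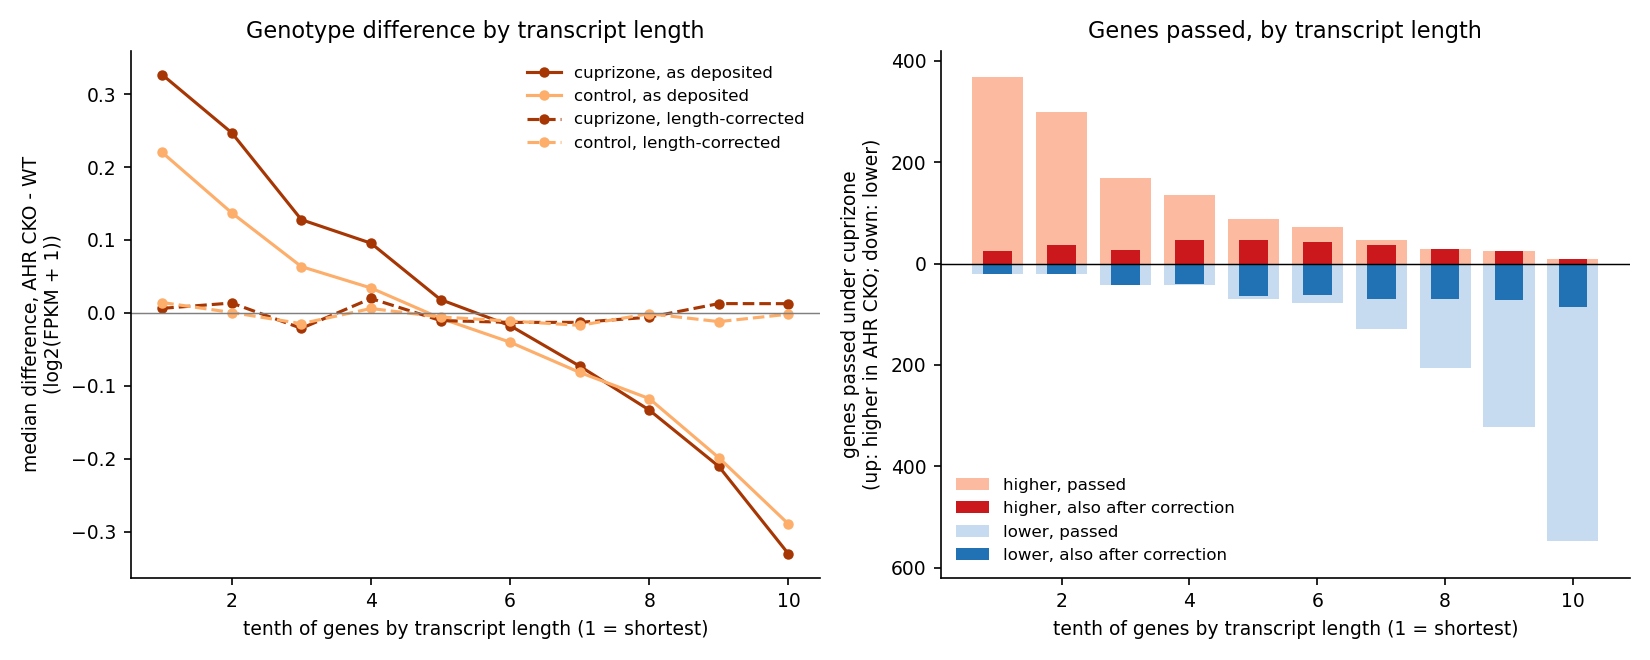
Left, median genotype difference (log2(FPKM + 1), AHR CKO minus WT) of the tested genes in each of 10 equal bins of transcript length, under cuprizone and in control tissue, as deposited (solid) and after length correction (dashed). Right, number of genes that passed under cuprizone in each bin, higher plotted upwards and lower downwards, with those that also passed after correction in dark. As deposited, 369 genes of the shortest 10% passed as higher and 548 of the longest 10% as lower, of which 24 and 86 also passed after correction.

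As deposited, 2744 genes passed under cuprizone (limma, Benjamini-Hochberg adjusted p under 0.05), which is 20.4% of those tested. Of these 1256 were higher and 1488 lower in AHR CKO, and 61 and 103 differed by at least 2-fold on the log2(FPKM + 1) scale. On both scales 866 genes passed (6.45%), 321 higher (2.39%) and 545 lower (4.06%), of which 37 and 92 differed by at least 2-fold. Counts of each list below stand against these shares, and against 9.35% higher and 11.1% lower as deposited. In 864 of the 866 the WT and AHR CKO libraries did not overlap, as in 39.2% of all genes tested. The length correction ended 1858 of the 2724 calls with a known length, or 68.21%, and added 244. Single libraries mattered: without AHR CKO CPZ1 the deposited values gave 796 calls (5.92%), without WT CPZ1 or CPZ3 they gave 1179 and 1264, and without AHR CKO CPZ2 they gave 1491. After length correction and without AHR CKO CPZ1, 99 genes passed as higher (0.743%) and 168 as lower (1.26%). The corrected values gave 371 calls without WT CPZ1, 315 without WT CPZ3 and 430 without AHR CKO CPZ2. Of the 866 genes that passed on both scales, 241 also passed in length-corrected values without AHR CKO CPZ1, and in that fit all 866 kept their sign.

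**Figure D2:**
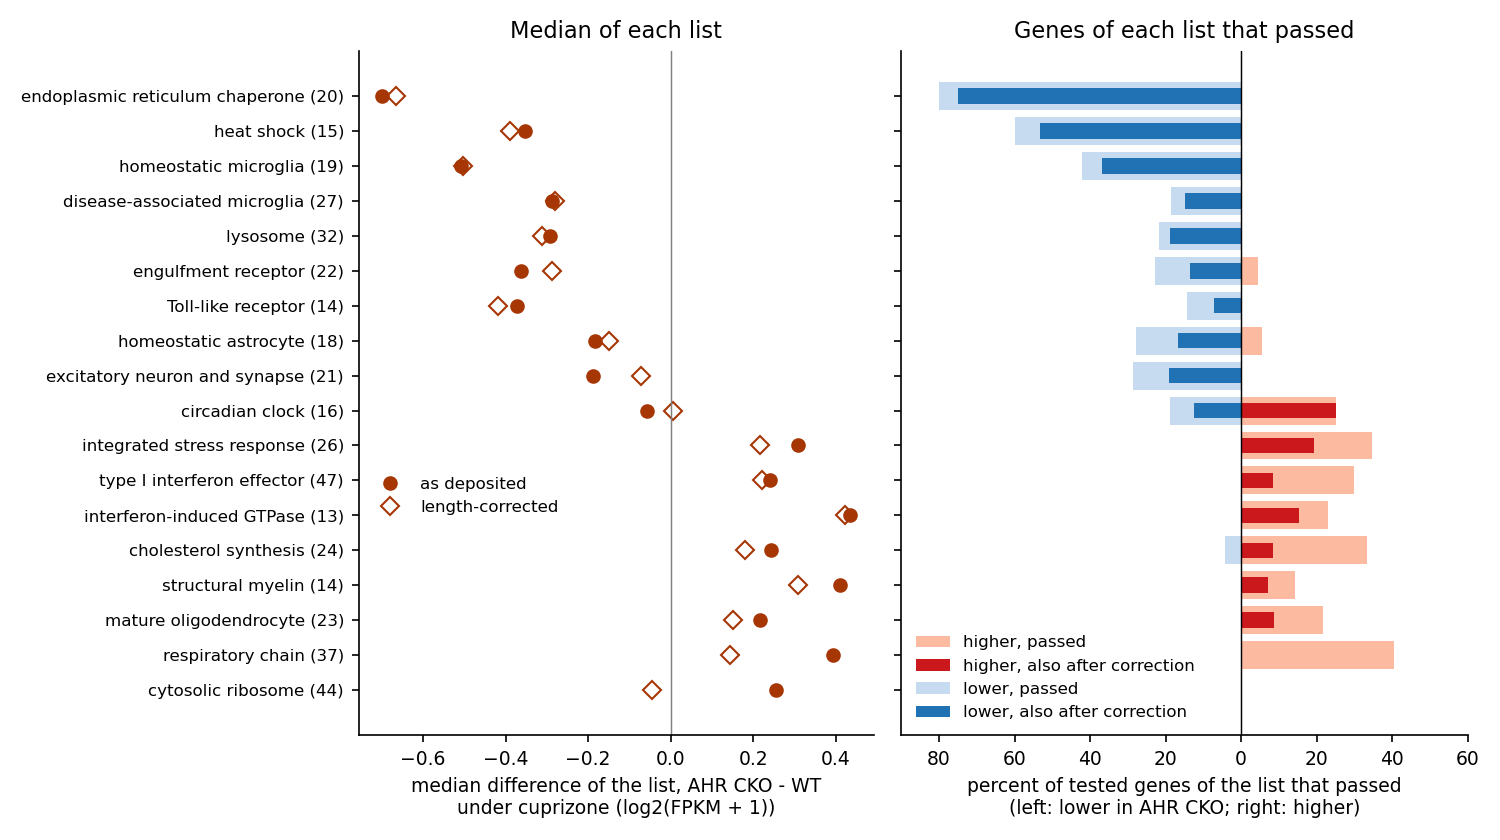
Left, median genotype difference under cuprizone of 18 gene lists (number of tested genes in brackets), as deposited (filled) and after length correction (open). Right, percent of each list's tested genes that passed as lower (to the left) or higher (to the right), with those that also passed after correction in dark. The chaperones of the endoplasmic reticulum had the lowest median, and none of the 15 calls of the respiratory chain list passed after correction.

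Chaperones of the endoplasmic reticulum fold new secreted and membrane proteins. When unfolded proteins build up, the sensors IRE1, PERK and ATF6 raise these chaperones, a programme known as the unfolded protein response. Of 20 tested genes of this list, 16 passed as lower in AHR CKO, 0 as higher and 4 did not pass, and 15 passed on both scales. The median log2 difference was -0.70 as deposited and -0.66 after length correction, where that of all genes tested was 0.00090 and 0.00010. With WT CPZ1, CPZ2 or CPZ3 removed there were 14, 15 and 14 calls, and with AHR CKO CPZ1, CPZ2 or CPZ3 removed 13, 15 and 16. After length correction the list had 16 calls, and 11 to 15 without single cuprizone libraries. In control tissue 2 of the 20 passed as lower and the median was -0.21.

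Hspa5 encodes BiP, the main chaperone of the compartment, which also holds the stress sensors inactive. The gene lies at chr2:34771970-34777547 (GRCm38, plus strand). It was listed at 283, 229 and 241 FPKM in WT and 97.9, 89.5 and 92.5 FPKM in AHR CKO cuprizone libraries. The lowest WT library was thus above every AHR CKO library, and the AHR CKO values lay close to those of both control groups, which were 116, 130.4 and 109 FPKM in WT and 96.3, 106 and 98.1 in AHR CKO. The means were 251 ± 28.1 in WT and 93.3 ± 4.26 FPKM in AHR CKO (± SD, n = 3 each), a 2.69-fold lower level (log2 difference -1.41, standard error 0.10, adjusted p = 7.87e-05). Length correction left the difference at -1.41 (adjusted p = 9.78e-05), and leaving out any 1 of the 12 libraries gave an adjusted p of at most 0.00138. The genotype difference under cuprizone exceeded that in control tissue (interaction -1.18, adjusted p = 0.0272).

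Folding factors with other roles followed the same order of groups. Sdf2l1, a cofactor of BiP, was listed at 51.5, 41.2 and 38.2 FPKM in WT and 17.2, 14.4 and 17.6 FPKM in AHR CKO cuprizone libraries (log2 difference -1.35, adjusted p = 0.00277). Manf, a secreted protein of the stressed reticulum, was at 49.5, 40.9 and 40.8 FPKM in WT and 21.4, 21.4 and 21.3 FPKM in AHR CKO cuprizone libraries (log2 difference -0.99, adjusted p = 0.000858). The 3 AHR CKO libraries of Manf were nearly equal, and every WT library was higher. Pdia6, which rearranges disulfide bonds, was at 107, 84.2 and 99.1 FPKM in WT and 46.4, 48.0 and 52.4 FPKM in AHR CKO cuprizone libraries (log2 difference -0.96, adjusted p = 0.000858). Calr, the calcium-binding lectin chaperone calreticulin, was at 290.1, 237 and 258 FPKM in WT and 165, 155 and 151 FPKM in AHR CKO cuprizone libraries (log2 difference -0.73, adjusted p = 0.00305). Xbp1, the transcription factor that IRE1 activates by splicing its RNA, was at 57.5, 66.0 and 61.9 FPKM in WT and 39.8, 39.8 and 34.8 FPKM in AHR CKO cuprizone libraries (log2 difference -0.68, adjusted p = 0.00195). In none of these 5 genes did the groups overlap, and all 5 passed after length correction and without any 1 of the 12 libraries.

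The same held for Hsp90b1 (log2 difference -0.72), the reticulum's own HSP90, for Hyou1 (-0.72), a large chaperone that exchanges the nucleotide of BiP, and for the disulfide isomerases Pdia3 (-0.62) and Pdia4 (-0.83). It also held for Creld2 (-0.82), Dnajc3 (-0.79), a co-chaperone that restrains PERK, and Sel1l (-0.51), a part of the machinery that exports misfolded proteins. In corrected values Dnajc3 and Sel1l did not hold without each cuprizone library (adjusted p up to 0.0681 and 0.0807). Canx, the membrane-bound lectin chaperone calnexin, passed on both scales (log2 difference -0.38) but not without AHR CKO CPZ1 (adjusted p = 0.05003). Atf6, the sensor that becomes a transcription factor by cleavage, was at 11.8, 12.8 and 13.3 FPKM in WT and 7.63, 10.3 and 10.4 FPKM in AHR CKO cuprizone libraries. Its groups did not overlap, but it passed as deposited only (log2 difference -0.40, adjusted p = 0.0295, and -0.11 with adjusted p = 0.453 after length correction), and it did not pass without WT CPZ1, CPZ2 or CPZ3 or AHR CKO CPZ1 (adjusted p up to 0.106).

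The ER stress response element, to which ATF6 and NF-Y bind, has the letters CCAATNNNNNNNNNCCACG. It was searched on both strands in the 250 bases before each gene's start in RefSeq (GRCm38.p6), which matched 17 of the 20 chaperone genes. It was present in 7 of these 17 (41.2%) and in 16 of the 10129 tested genes with a sequence (0.158%). Of the 17 genes, 13 passed on both scales, among them all 7 with the element: Calr, Canx, Creld2, Dnajc3, Hsp90b1, Hspa5 and Pdia6. The windows of 3 of them are shown 5′ to 3′ on the gene's strand because these genes also passed the interaction with cuprizone after length correction. The element is in capitals, forward in Hspa5 and Pdia6 and on the reverse strand in Calr. They are chr2:34771840-34772089 (plus strand) for Hspa5, chr12:17266339-17266588 (plus strand) for Pdia6 and chr8:84846932-84847181 (minus strand) for Calr. Gene positions in this text are GENCODE M21 bounds, which can differ from RefSeq starts, so a window can overlap them. In Hspa5 the element lies inside the gene bounds given above.
Hspa5: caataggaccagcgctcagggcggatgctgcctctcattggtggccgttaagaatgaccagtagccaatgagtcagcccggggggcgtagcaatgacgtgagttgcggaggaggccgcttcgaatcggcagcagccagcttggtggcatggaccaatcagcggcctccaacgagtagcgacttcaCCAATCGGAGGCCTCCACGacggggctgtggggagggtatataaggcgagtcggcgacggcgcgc
Pdia6: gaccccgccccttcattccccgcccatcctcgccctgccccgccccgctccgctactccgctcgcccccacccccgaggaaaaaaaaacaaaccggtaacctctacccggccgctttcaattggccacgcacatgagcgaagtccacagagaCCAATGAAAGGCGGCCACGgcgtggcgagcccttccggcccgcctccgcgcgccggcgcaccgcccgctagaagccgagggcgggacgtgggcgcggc
Calr: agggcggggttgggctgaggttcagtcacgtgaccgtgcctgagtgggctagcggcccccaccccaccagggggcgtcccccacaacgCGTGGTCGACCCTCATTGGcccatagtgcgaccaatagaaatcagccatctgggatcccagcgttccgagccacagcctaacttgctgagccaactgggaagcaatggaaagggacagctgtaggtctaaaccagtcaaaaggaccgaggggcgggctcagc
A match describes the letters of the window and does not show that a factor binds there. Here and below, the share of matches in a whole list follows from which genes were listed, not from the values of these libraries.

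Heat shock proteins refold proteins outside the reticulum under control of HSF1, and the list holds cytosolic and mitochondrial members. Of 15 tested genes, 9 passed as lower and 8 on both scales, with a median of -0.35 as deposited and -0.39 after correction. The count became 4, 7 and 5 when WT CPZ1, CPZ2 or CPZ3 was left out, and 5, 6 and 8 when AHR CKO CPZ1, CPZ2 or CPZ3 was. The length-corrected values gave 9 calls, and 3 to 7 when 1 cuprizone library was left out. Hspa1b, the stress-inducible HSP70, was listed at 14.2, 19.9 and 10.4 FPKM in WT and 2.63, 2.96 and 3.06 FPKM in AHR CKO cuprizone libraries. All WT cuprizone libraries were above 10 FPKM, whereas the AHR CKO cuprizone libraries lay in the range of the control libraries, from 1.71 to 3.31 FPKM (log2 difference -1.98, adjusted p = 0.000858; interaction -2.08, adjusted p = 0.0392). Hspa1a is nearly identical to Hspa1b, so fragments could be split between both, and their sum was 24.6 ± 8.54 FPKM in WT and 6.89 ± 0.727 in AHR CKO (mean ± SD, n = 3 each). Dnajb1, the HSP40 partner of HSP70, was at 32.6, 35.5 and 33.9 FPKM in WT and 25.8, 23.3 and 20.2 FPKM in AHR CKO cuprizone libraries (log2 difference -0.54, adjusted p = 0.00562), and Hsph1, its nucleotide exchange factor, at 77.3, 74.2 and 81.2 FPKM in WT and 52.5, 55.2 and 50.1 FPKM in AHR CKO cuprizone libraries (log2 difference -0.55, adjusted p = 0.00439). The groups of both genes did not overlap. Hspb1, a small heat shock protein, was at 33.3, 31.2 and 27.8 FPKM in WT and 20.5, 16.6 and 19.6 FPKM in AHR CKO cuprizone libraries (log2 difference -0.68, adjusted p = 0.0340) and did not pass without WT CPZ1, CPZ2 or CPZ3 or AHR CKO CPZ1 or CPZ2 (adjusted p up to 0.102). The heat shock element was searched in the same windows as GAANNTTCNNGAA and TTCNNGAANNTTC on both strands. It was present in 2 of 10 genes of the list with a sequence and in 0.484% of the tested genes, but in 0 of the 6 that passed on both scales. The 2 were Hspd1 and Hspe1, which encode mitochondrial chaperonins. The core of the element that AHR binds, searched as TNGCGTG, was present in 0 of 9 genes of the AHR pathway list and in 7.86% of the tested genes.

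**Figure D3:**
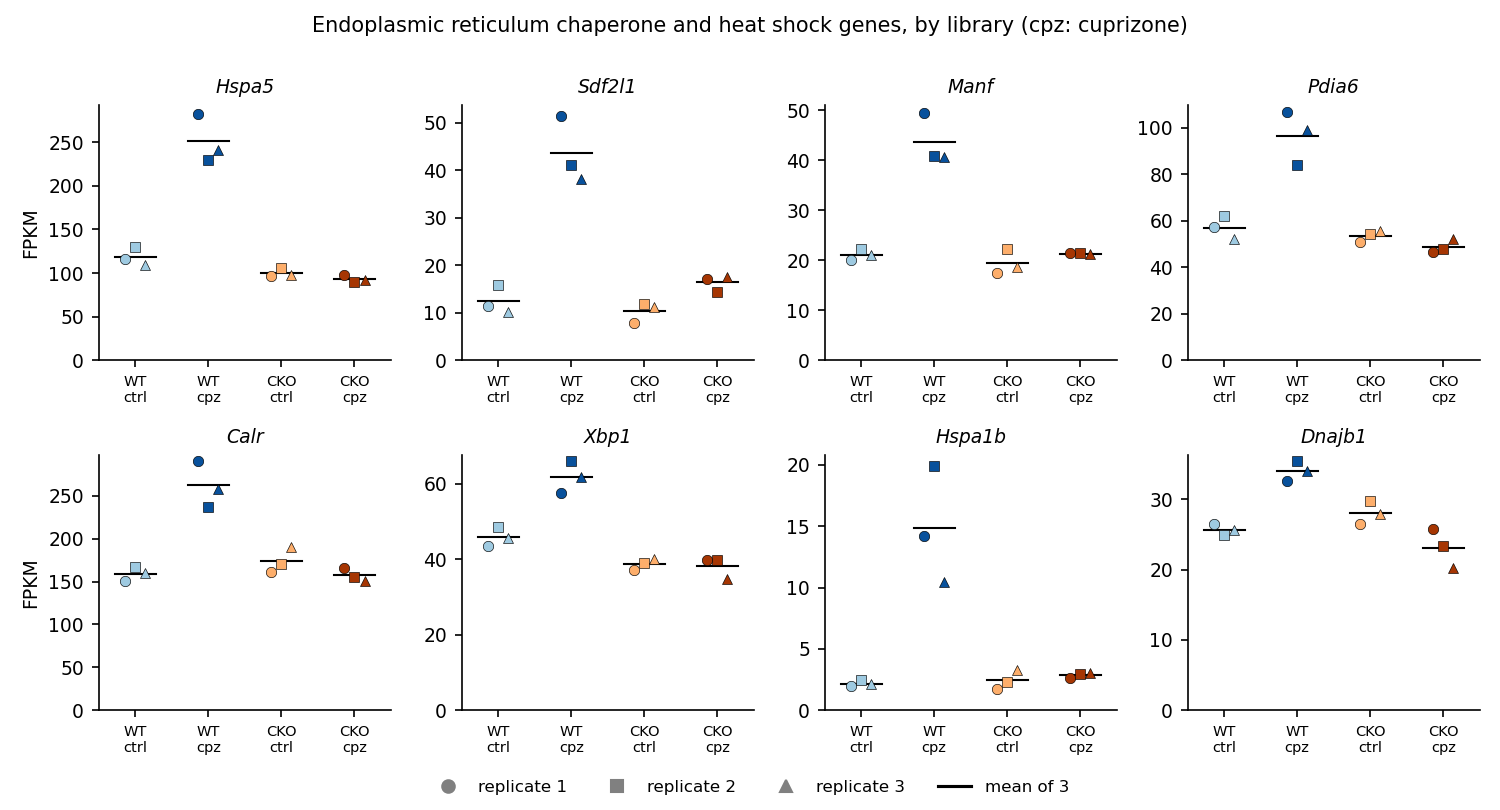
FPKM of 6 genes of the endoplasmic reticulum chaperone list and 2 heat shock genes in each of the 12 libraries, by group (circle, square and triangle for replicates 1, 2 and 3, line for the mean of 3). In all 8 genes the 3 WT cuprizone libraries lie above the 3 AHR CKO cuprizone libraries, for Hspa5 at 229 to 283 against 89.5 to 97.9 FPKM.

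Genes of unstimulated microglia were lower in the AHR CKO libraries, though only part of the list passed and single libraries weighed on it. Of 19 tested genes, 8 passed as lower, 0 as higher and 11 did not pass, and 7 passed on both scales. The median difference was -0.51 as deposited and -0.50 after length correction, and without AHR CKO CPZ1 it was -0.33 as deposited. Removing WT CPZ1, CPZ2 or CPZ3 left 5, 10 and 5 calls, and removing AHR CKO CPZ1, CPZ2 or CPZ3 left 4, 5 and 13. After length correction the list had 8 calls, and 3 to 12 without single cuprizone libraries. AHR CKO CPZ1 was the lowest of the 6 libraries in 14 of these genes and WT CPZ1 the highest in 17.

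Cx3cr1, the fractalkine receptor of microglia (chr9:119901616-120069879, minus strand), was listed at 69.3, 49.4 and 58.7 FPKM in WT and 1.16, 22.7 and 29.6 FPKM in AHR CKO cuprizone libraries. AHR CKO CPZ1 was far below CPZ2 and CPZ3, and all 3 were below every WT library. With that spread the difference did not pass (log2 difference -2.36, standard error 0.85, adjusted p = 0.0681), nor without AHR CKO CPZ1 (log2 difference -1.15, adjusted p = 0.232). In control tissue Cx3cr1 was at 24.9, 24.4 and 22.6 FPKM in WT and at 1.05, 9.60 and 0.801 in AHR CKO. Again 1 AHR CKO library, here Ctrl2, differed from its group. No other gene of the list showed such a gap between libraries of 1 group, and without Cx3cr1 its median was -0.50.

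Gpr34, a lysophosphatidylserine receptor of microglia, was listed at 35.1, 23.5 and 30.2 FPKM in WT and 10.7, 16.6 and 18.8 FPKM in AHR CKO cuprizone libraries (log2 difference -0.92, adjusted p = 0.00937, and -1.09 with adjusted p = 0.00951 after length correction). Fcrls, an Fc receptor-like protein specific to microglia, was at 91.3, 62.2 and 59.5 FPKM in WT and 26.7, 36.3 and 46.7 FPKM in AHR CKO cuprizone libraries (log2 difference -0.95, adjusted p = 0.00974, and -1.09 with adjusted p = 0.0110 after length correction). Mertk, the receptor tyrosine kinase with which phagocytes take up apoptotic cells and myelin, was at 19.9, 15.1 and 16.5 FPKM in WT and 6.45, 10.8 and 11.7 FPKM in AHR CKO cuprizone libraries (log2 difference -0.80, adjusted p = 0.0117, and -0.74 with adjusted p = 0.0179 after length correction). In these 3 genes every AHR CKO library lay below every WT library, and the calls held without any 1 library, as did that of Crybb1 (log2 difference -1.0). In length-corrected values they held too, except that of Mertk (adjusted p up to 0.0633). Csf1r, the receptor on which microglia depend for survival, was at 124, 81.1 and 101 FPKM in WT and 39.5, 71.2 and 80.7 FPKM in AHR CKO cuprizone libraries (log2 difference -0.71, adjusted p = 0.0389, and -0.60 with adjusted p = 0.0739 after length correction), and its call was lost after length correction and without WT Ctrl1 or Ctrl2, WT CPZ1 or CPZ3, AHR CKO Ctrl1 or Ctrl2 or AHR CKO CPZ1 or CPZ2 (adjusted p up to 0.131). P2ry12, the purinergic receptor of surveying microglia, was at 25.9, 16.9 and 22.8 FPKM in WT and 11.4, 15.7 and 18.3 FPKM in AHR CKO cuprizone libraries (log2 difference -0.51, adjusted p = 0.0510), and Tmem119 at 23.4, 12.6 and 17.3 FPKM in WT and 16.6, 14.8 and 16.9 FPKM in AHR CKO cuprizone libraries (log2 difference -0.10, adjusted p = 0.706). The groups overlapped in these 2 genes and neither passed.

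Disease-associated microglia are the state that microglia take on around damaged myelin, with genes of lipid handling and lysosomes turned up. Of 27 tested genes, 5 passed as lower and 0 as higher, with 4 on both scales and a median of -0.29. Without AHR CKO CPZ1 the median was -0.11. AHR CKO CPZ1 was the lowest of the 6 cuprizone libraries in 19 of these genes and WT CPZ1 the highest in 20. In fits without WT CPZ1, CPZ2 or CPZ3 there were 1, 4 and 3 calls, and without AHR CKO CPZ1, CPZ2 or CPZ3 1, 2 and 8. The length-corrected values gave 5 calls, and 1 to 7 when 1 cuprizone library was left out. Rescaled to TPM, which moved the median of all genes by -0.12, the list had 0 higher and 9 lower calls. Ccl6, a chemokine, was listed at 51.5, 38.2 and 47.7 FPKM in WT and 13.4, 21.7 and 25.5 FPKM in AHR CKO cuprizone libraries (log2 difference -1.18, adjusted p = 0.00703, and -1.45 with adjusted p = 0.00667 after length correction). Its groups did not overlap and it passed without any 1 library, also in corrected values. Cst7, an inhibitor of cathepsins that marks this state, was at 107, 46.4 and 68.7 FPKM in WT and 21.5, 26.6 and 37.9 FPKM in AHR CKO cuprizone libraries (log2 difference -1.29, adjusted p = 0.0204, and -1.62 with adjusted p = 0.0179 after length correction). It was nearly absent from control tissue, at 0.685, 1.80 and 0.216 FPKM in WT and 0.312, 0.607 and 0.830 in AHR CKO, and its call was lost without WT CPZ1 or CPZ3 or AHR CKO CPZ1 or CPZ2 (adjusted p up to 0.0896). Trem2, the lipid-sensing receptor needed to enter the state, was at 168, 128 and 126 FPKM in WT and 89.4, 112 and 129.9 FPKM in AHR CKO cuprizone libraries (log2 difference -0.35, adjusted p = 0.107), and Apoe, the lipoprotein that carries cholesterol away, at 12590, 10100 and 9364 FPKM in WT and 9600, 11560 and 14000 FPKM in AHR CKO cuprizone libraries (log2 difference 0.13, adjusted p = 0.662). The groups overlapped in Trem2 and in Apoe.

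Lysosomes digest engulfed myelin. Of 32 tested lysosomal genes, 7 passed as lower and 6 on both scales, with a median of -0.29 and, after correction, -0.31. Without AHR CKO CPZ1 the deposited median was -0.17. AHR CKO CPZ1 was the lowest of the 6 cuprizone libraries in 24 of these genes and WT CPZ1 the highest in 27. Leaving out WT CPZ1, CPZ2 or CPZ3 gave 0, 6 and 3 calls, and leaving out AHR CKO CPZ1, CPZ2 or CPZ3 gave 0, 1 and 12, so that the count rested on WT CPZ1 and AHR CKO CPZ1 and CPZ2. After length correction the list had 8 calls, and 1 to 14 without single cuprizone libraries. Ctsd, the aspartyl protease cathepsin D, was at 1578, 1032 and 1014 FPKM in WT and 611, 738 and 903 FPKM in AHR CKO cuprizone libraries (log2 difference -0.67, adjusted p = 0.0239, and -0.84 with adjusted p = 0.0203 after length correction). Hexa, a subunit of lysosomal hexosaminidase, was at 97.7, 81.1 and 78.6 FPKM in WT and 47.5, 55.2 and 70.5 FPKM in AHR CKO cuprizone libraries (log2 difference -0.58, adjusted p = 0.0137, and -0.76 with adjusted p = 0.0103 after length correction). No AHR CKO library reached a WT library in either gene. Of 22 receptors and bridging molecules of engulfment, 5 passed as lower and 1 as higher, and 3 as lower on both scales, namely Mertk, Itgb5 and Fcgr3. Fcgr3, an Fc receptor for antibody-coated targets, was at 95.8, 58.3 and 78.9 FPKM in WT and 29.1, 50.7 and 55.2 FPKM in AHR CKO cuprizone libraries (log2 difference -0.80, adjusted p = 0.0253) and did not pass without WT CPZ1 or CPZ3 or AHR CKO CPZ1 (adjusted p up to 0.0912). The gene that passed as higher was Gas6, the ligand that bridges dying cells to Mertk, at 54.9, 44.5 and 46.8 FPKM in WT and 71.0, 63.2 and 65.6 FPKM in AHR CKO cuprizone libraries (log2 difference 0.45, adjusted p = 0.0121, and 0.35 with adjusted p = 0.0508 after length correction). Its groups did not overlap. Its call was lost after length correction and without AHR CKO CPZ1 (adjusted p = 0.0512). Without WT CPZ1, CPZ2 or CPZ3 the counts were 1 higher and 1 lower, 1 higher and 6 lower, and 1 higher and 2 lower, and without AHR CKO CPZ1, CPZ2 or CPZ3 they were 0 higher and 1 lower, 1 higher and 2 lower, and 1 higher and 10 lower.

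**Figure D4:**
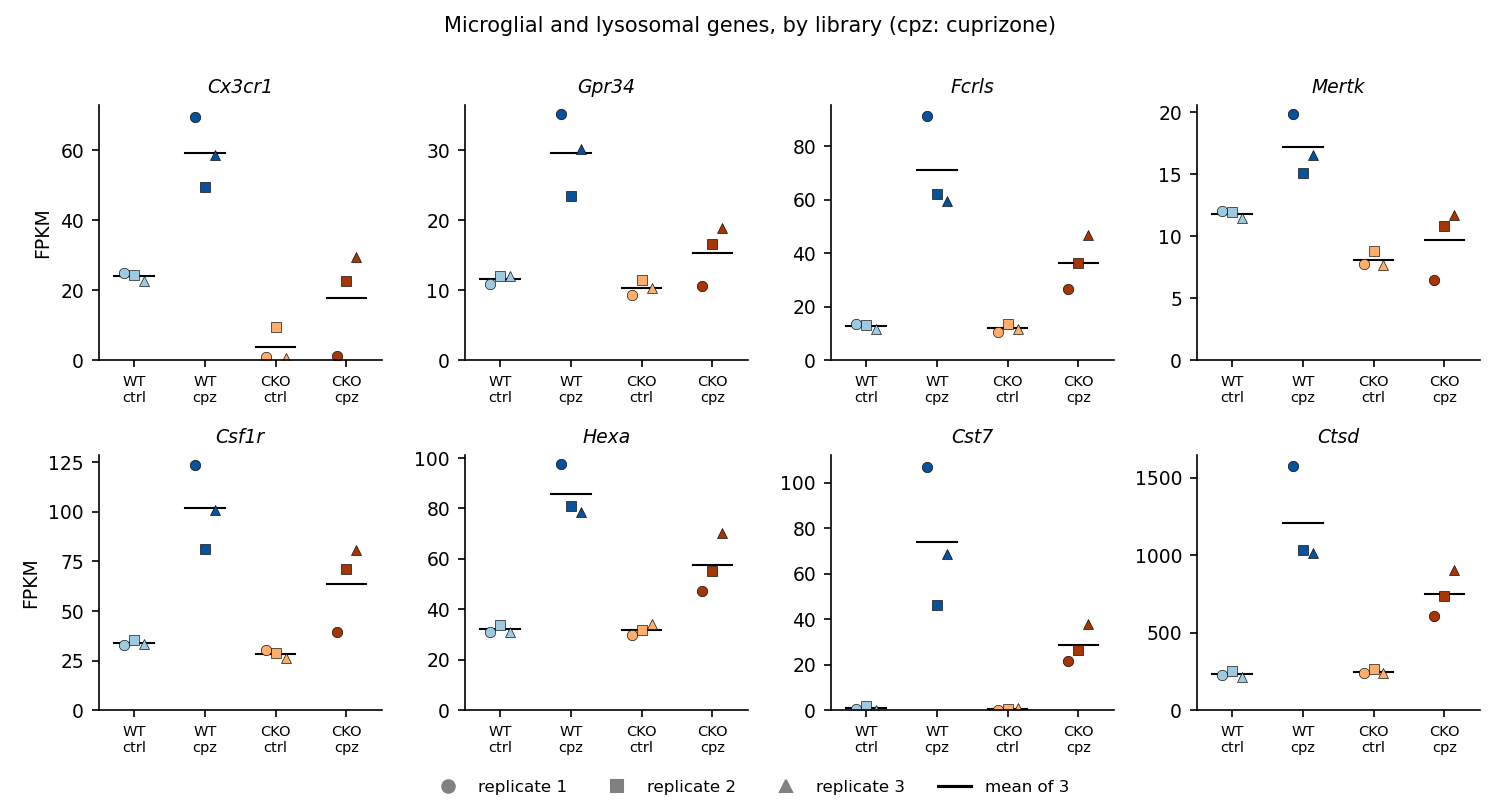
FPKM of 8 microglial and lysosomal genes in each of the 12 libraries, by group (circle, square and triangle for replicates 1, 2 and 3, line for the mean of 3). In all 8 genes AHR CKO CPZ1 is the lowest cuprizone library and WT CPZ1 the highest, with Csf1r at 39.5 and 124 FPKM.

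Markers of other blood and myeloid cells were low. Border macrophage and monocyte markers summed to 5.84 to 8.61 FPKM in WT and 5.51 to 9.37 in AHR CKO, over 10 of 14 listed genes, and of 3 tested none passed in limma's test (0 higher and 0 lower at an unadjusted p under 0.05). Of 20 lymphocyte markers 5 were in the table, among them Cd8a, the T cell co-receptor, at 0.402, 0.147 and 0.476 FPKM in WT and 0.367, 0.416 and 0.516 FPKM in AHR CKO cuprizone libraries. Their sum of 274 to 314 FPKM in WT and 308 to 380 in AHR CKO was nearly all Thy1, which neurons express too, and of 2 tested none passed (1 higher and 0 lower unadjusted). The phagocyte oxidase, which makes superoxide, had 6 tested subunits, none of which passed in limma's test, with a median log2 difference of -0.24 and 0 higher and 0 lower unadjusted. Toll-like receptors and adaptors had 2 of 14 genes lower, 1 on both scales, namely the kinase Irak4 (log2 difference -0.48, adjusted p = 0.0398). It did not pass without WT Ctrl1 or Ctrl2, WT CPZ1 or CPZ3, AHR CKO Ctrl1 or Ctrl2 or AHR CKO CPZ1 or CPZ2 (adjusted p up to 0.147). With WT CPZ1, CPZ2 or CPZ3 removed there were 0, 2 and 0 calls, and with AHR CKO CPZ1, CPZ2 or CPZ3 removed 0, 0 and 5. In the list of CC chemokines and receptors 3 of 8 genes passed as lower and 2 on both scales. These were Ccl6 and Ccl9, the latter at 5.68, 3.46 and 6.25 FPKM in WT and 2.08, 2.44 and 3.35 FPKM in AHR CKO cuprizone libraries (log2 difference -0.74, adjusted p = 0.0184). The Ccl9 groups did not overlap, and its call was lost without WT CPZ1 or CPZ3 or AHR CKO CPZ1 or CPZ2 (adjusted p up to 0.0796). The count became 0 higher and 1 lower, 0 higher and 3 lower, and 1 higher and 1 lower when WT CPZ1, CPZ2 or CPZ3 was left out, and 0 higher and 1 lower, 0 higher and 1 lower, and 0 higher and 3 lower when AHR CKO CPZ1, CPZ2 or CPZ3 was.

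Interferon-stimulated genes went the other way. Type I interferons signal through JAK kinases to STAT factors and IRF7, which turn on antiviral effectors. Of 47 tested effectors, 14 passed as higher in AHR CKO, 0 as lower and 33 did not pass. On both scales 4 passed, namely Ifit3, Oasl2, Xaf1 and Tor3a, and the median was 0.24 as deposited and 0.22 after correction. Removing WT CPZ1, CPZ2 or CPZ3 left 4 higher and 0 lower, 4 higher and 1 lower, and 9 higher and 0 lower calls, and removing AHR CKO CPZ1, CPZ2 or CPZ3 left 4 higher and 0 lower, 3 higher and 0 lower, and 5 higher and 0 lower. The count thus fell by more than 1.5 times on leaving out any 1 of the 6 libraries. The length-corrected values gave 4 calls, and 0 to 1 when 1 cuprizone library was left out. Rescaling to TPM left 3 higher and 0 lower calls. The microglial genes, whose summed levels are given above, had the opposite sign in the same libraries, and their part in these values was not tested.

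Ifit3, an inhibitor of viral RNA translation, was listed at 21.9, 16.0 and 31.7 FPKM in WT and 44.0, 53.6 and 53.4 FPKM in AHR CKO cuprizone libraries (log2 difference 1.13, adjusted p = 0.0112, and 0.90 with adjusted p = 0.0475 after length correction). Oasl2, a relative of the oligoadenylate synthetases, was at 14, 6.69 and 12.5 FPKM in WT and 19.4, 23.3 and 26.4 FPKM in AHR CKO cuprizone libraries (log2 difference 1.04, adjusted p = 0.0161, and 1.0 with adjusted p = 0.0314 after length correction). Irf7, the factor that amplifies interferon production, was at 11.7, 5.46 and 12.1 FPKM in WT and 21.2, 23.5 and 27.6 FPKM in AHR CKO cuprizone libraries (log2 difference 1.29, adjusted p = 0.0138, and 1.26 with adjusted p = 0.0265 after length correction). The 3 AHR CKO libraries were above the 3 WT libraries in each of these genes, and WT CPZ2 was the lowest library in all 3. Cxcl10, a chemokine induced by interferon (chr5:92346638-92348889, minus strand), was at 12, 7.51 and 15.1 FPKM in WT and 28.9, 39.5 and 49.1 FPKM in AHR CKO cuprizone libraries (log2 difference 1.69, adjusted p = 0.0134, and 1.55 with adjusted p = 0.0345 after length correction). It was at 3.30, 0.733 and 0.198 FPKM in WT and 0.196, 0.191 and 0.399 in AHR CKO control tissue. Its cuprizone groups did not overlap, and these 4 calls held in the deposited values without any 1 library. In length-corrected values none of the 4 held without each cuprizone library, with adjusted p up to 0.123 for Ifit3, 0.0808 for Oasl2, 0.0748 for Irf7 and 0.0891 for Cxcl10. Isg15, a ubiquitin-like effector, was at 13, 7.57 and 11.1 FPKM in WT and 24.1, 25.5 and 34.1 FPKM in AHR CKO cuprizone libraries (log2 difference 1.34, adjusted p = 0.0309, and 1.0 with adjusted p = 0.154 after length correction), and its call was lost after length correction and without WT CPZ1, CPZ2 or CPZ3 or AHR CKO CPZ1, CPZ2 or CPZ3 (adjusted p up to 0.0777).

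Guanylate-binding proteins and related GTPases attack intracellular microbes. Of 13 tested, 3 passed as higher and 2 on both scales, with a median of 0.44. In fits without WT CPZ1, CPZ2 or CPZ3 there were 2, 2 and 3 calls, and without AHR CKO CPZ1, CPZ2 or CPZ3 2, 1 and 2. Gbp3 was at 10.1, 9.39 and 10.9 FPKM in WT and 17.0, 20.1 and 21.8 FPKM in AHR CKO cuprizone libraries (log2 difference 0.89, adjusted p = 0.00794, and 0.80 with adjusted p = 0.0186 after length correction). Gbp5 was at 4.49, 2.21 and 4.85 FPKM in WT and 6.54, 8.26 and 11.5 FPKM in AHR CKO cuprizone libraries (log2 difference 1.03, adjusted p = 0.0202) and did not pass without AHR CKO CPZ2 (adjusted p = 0.05001). Neither gene's groups overlapped. Of 19 genes of MHC class I presentation, 2 passed as higher and both did so on both scales, Tap1, the peptide transporter (log2 difference 0.53, adjusted p = 0.0242), and H2-Q4 (0.86, adjusted p = 0.0173), a class I gene whose sequence is close to that of its neighbours, so that its level is uncertain. Tap1 did not pass without WT CPZ2 or AHR CKO CPZ2 or CPZ3 (adjusted p up to 0.0638), and H2-Q4 did not pass without AHR CKO CPZ2 (adjusted p = 0.0531). Among all genes tested, 9.35% passed as higher and 11.1% as lower as deposited, and 2.39% and 4.06% on both scales. Upstream of the effectors, of 23 genes of interferon signalling Irf7 passed as higher, and Jak1, Jak2 and Tlr7 passed as lower, none of the latter after length correction. Leaving out WT CPZ1, CPZ2 or CPZ3 gave 2 higher and 1 lower, 1 higher and 4 lower, and 1 higher and 1 lower calls, and leaving out AHR CKO CPZ1, CPZ2 or CPZ3 gave 2 higher and 0 lower, 1 higher and 1 lower, and 1 higher and 8 lower. Relb, a subunit of NF-kB, was at 4.68, 4.16 and 4.76 FPKM in WT and 6.23, 6.92 and 7.45 FPKM in AHR CKO cuprizone libraries (log2 difference 0.51, adjusted p = 0.0134, and 0.48 with adjusted p = 0.0220 after length correction), with groups that did not overlap, and was the 1 gene of 20 in the cytokine and NF-kB list to pass on both scales, of 4 that passed as deposited. Without WT CPZ1, CPZ2 or CPZ3 the counts were 3 higher and 0 lower, 3 higher and 1 lower, and 2 higher and 0 lower, and without AHR CKO CPZ1, CPZ2 or CPZ3 they were 5 higher and 0 lower, 2 higher and 0 lower, and 2 higher and 4 lower in that list.

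The interferon-stimulated response element was searched with the letters GAAANNGAAA on both strands of the 250 bases before the start. It was present in 10 of the 31 effector genes with a sequence (32.3%) and in 3.05% of the tested genes. Of the 3 effectors with a sequence that passed on both scales, Ifit3 held it. Its window, chr19:34583279-34583528 (plus strand, GRCm38.p6), is shown because it held the letters at 2 places, both on the reverse strand and given in capitals.
Ifit3: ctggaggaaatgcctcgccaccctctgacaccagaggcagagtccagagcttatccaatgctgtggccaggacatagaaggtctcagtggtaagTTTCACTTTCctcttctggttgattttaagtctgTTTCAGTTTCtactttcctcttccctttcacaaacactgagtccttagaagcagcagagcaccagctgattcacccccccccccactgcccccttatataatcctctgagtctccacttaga

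The integrated stress response lowers general protein synthesis and raises ATF4 targets that handle amino acid supply. PERK, named above among the sensors of the reticulum, is 1 of the kinases that start it. Of 26 tested genes, 9 passed as higher, 0 as lower, and 5 passed on both scales, with a median of 0.31 as deposited and 0.22 after correction. With WT CPZ1, CPZ2 or CPZ3 removed there were 3 higher and 0 lower, 10 higher and 0 lower, and 3 higher and 0 lower calls, and with AHR CKO CPZ1, CPZ2 or CPZ3 removed 8 higher and 0 lower, 4 higher and 0 lower, and 5 higher and 1 lower. After length correction the list had 5 calls, and 0 to 6 without single cuprizone libraries. With TPM there were 4 higher and 0 lower calls. Trib3, a pseudokinase that feeds back on ATF4, was listed at 3.19, 5.4 and 5.26 FPKM in WT and 11, 11 and 12 FPKM in AHR CKO cuprizone libraries (log2 difference 1.16, adjusted p = 0.00812, and 0.98 with adjusted p = 0.0238 after length correction). Eif4ebp1, a repressor of translation, was at 13, 14.4 and 10.6 FPKM in WT and 19.1, 25.0 and 27.1 FPKM in AHR CKO cuprizone libraries (log2 difference 0.85, adjusted p = 0.00506, and 0.66 with adjusted p = 0.0217 after length correction). Nupr1, a stress-induced chromatin protein, was at 42.0, 70.5 and 46.6 FPKM in WT and 102, 104 and 137 FPKM in AHR CKO cuprizone libraries (log2 difference 1.12, adjusted p = 0.0161) and did not pass without WT CPZ1 or CPZ3 (adjusted p up to 0.0583). Every AHR CKO library of these 3 genes was above every WT library, in the direction opposite to that of the chaperones.

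Asns, the asparagine synthetase that ATF4 induces, was at 30.1, 34.5 and 34.2 FPKM in WT and 48.2, 47.1 and 46.0 FPKM in AHR CKO cuprizone libraries (log2 difference 0.51, adjusted p = 0.00735, and 0.32 with adjusted p = 0.0571 after length correction) and passed as deposited only, without overlap of the groups. Ddit3, which encodes the death-promoting factor CHOP, was at 54.7, 107 and 77.7 FPKM in WT and 122, 112 and 132 FPKM in AHR CKO cuprizone libraries (log2 difference 0.66, adjusted p = 0.0374, and 0.33 with adjusted p = 0.268 after length correction). Atf3, a stress-induced factor, was at 8.38, 7.29 and 7.0 FPKM in WT and 8.40, 12.3 and 15.7 FPKM in AHR CKO cuprizone libraries (log2 difference 0.58, adjusted p = 0.0373, and 0.39 with adjusted p = 0.202 after length correction). In Ddit3 and in Atf3 the lowest AHR CKO library was close to the highest WT library, both calls were lost after length correction, and that of Ddit3 was lost without WT Ctrl1, WT CPZ1 or CPZ3, AHR CKO Ctrl2 or AHR CKO CPZ1, CPZ2 or CPZ3 (adjusted p up to 0.12) and that of Atf3 without WT CPZ1, CPZ2 or CPZ3, AHR CKO Ctrl2 or AHR CKO CPZ2 or CPZ3 (adjusted p up to 0.109). The C/EBP-ATF element, searched as TGATGNAA on both strands, was present in 6 of 21 genes of the list with a sequence (28.6%) and in 2.41% of the tested genes.

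Clock genes separated the genotypes under cuprizone, in both directions. The clock is a loop in which CLOCK and its partner ARNTL drive Per, Cry and Nr1d1, whose products then repress it. A clock gene's level therefore depends on the hour of collection, which the labels do not give. Of 16 tested genes, 4 passed as higher and 3 as lower, and 4 and 2 did so on both scales. The count became 4 higher and 3 lower, 4 higher and 3 lower, and 4 higher and 2 lower when WT CPZ1, CPZ2 or CPZ3 was left out, and 5 higher and 3 lower, 4 higher and 3 lower, and 4 higher and 3 lower when AHR CKO CPZ1, CPZ2 or CPZ3 was. Ciart, a repressor of the CLOCK complex (chr3:95878503-95882251, minus strand), was listed at 3.88, 6.31 and 7.02 FPKM in WT and 20.5, 24.5 and 17.3 FPKM in AHR CKO cuprizone libraries (log2 difference 1.71, adjusted p = 0.000858, and 1.51 with adjusted p = 0.000869 after length correction). Dbp, an output factor of the clock, was at 27.0, 45.4 and 40.9 FPKM in WT and 128, 147 and 91.8 FPKM in AHR CKO cuprizone libraries (log2 difference 1.68, adjusted p = 0.00191, and 1.46 with adjusted p = 0.00376 after length correction). Nr1d1, the repressor REV-ERBα, was at 27.3, 38.6 and 30.0 FPKM in WT and 66.6, 77.4 and 70.1 FPKM in AHR CKO cuprizone libraries (log2 difference 1.15, adjusted p = 0.00133, and 1.07 with adjusted p = 0.00224 after length correction). WT cuprizone was the lowest of the 4 groups in all 3 genes, and no AHR CKO cuprizone library overlapped with it.

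Per1 was higher (log2 difference 0.49, adjusted p = 0.0128), whereas Per2 (log2 difference -0.65, adjusted p = 0.00735) and Cry1 (-0.52, adjusted p = 0.0181) were lower, all on both scales. Per1 and Per2 passed without any 1 library, but not in corrected values (adjusted p up to 0.05015 and 0.163), and Cry1 did not pass without WT CPZ3 (adjusted p = 0.0635). Clock itself was at 13.3, 12.3 and 11.7 FPKM in WT and 7.09, 7.99 and 9.54 FPKM in AHR CKO cuprizone libraries (log2 difference -0.55, adjusted p = 0.00965, and -0.18 with adjusted p = 0.136 after length correction) and passed as deposited only. In control tissue 1 gene of the list passed as higher and 2 as lower. The E-box CACGTG, which CLOCK and ARNTL bind, was present in 5 of the 14 clock genes with a sequence (35.7%) and in 9.81% of the tested genes. The D-box TTATGTAA, which DBP binds, was present in 1 of the 14 (7.14%), Per3, and in 0.563% of the tested genes, and in 0 of the 5 with a sequence that passed on both scales. The window of Ciart, chr3:95882229-95882478 (minus strand, GRCm38.p6), is shown because it held the E-box 3 times, in capitals, and because Ciart differed most in the list.
Ciart: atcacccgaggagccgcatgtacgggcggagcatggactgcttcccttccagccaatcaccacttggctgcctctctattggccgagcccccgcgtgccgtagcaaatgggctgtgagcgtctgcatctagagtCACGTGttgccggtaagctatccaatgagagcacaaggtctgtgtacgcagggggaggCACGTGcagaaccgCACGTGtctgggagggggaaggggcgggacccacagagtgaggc

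**Figure D5:**
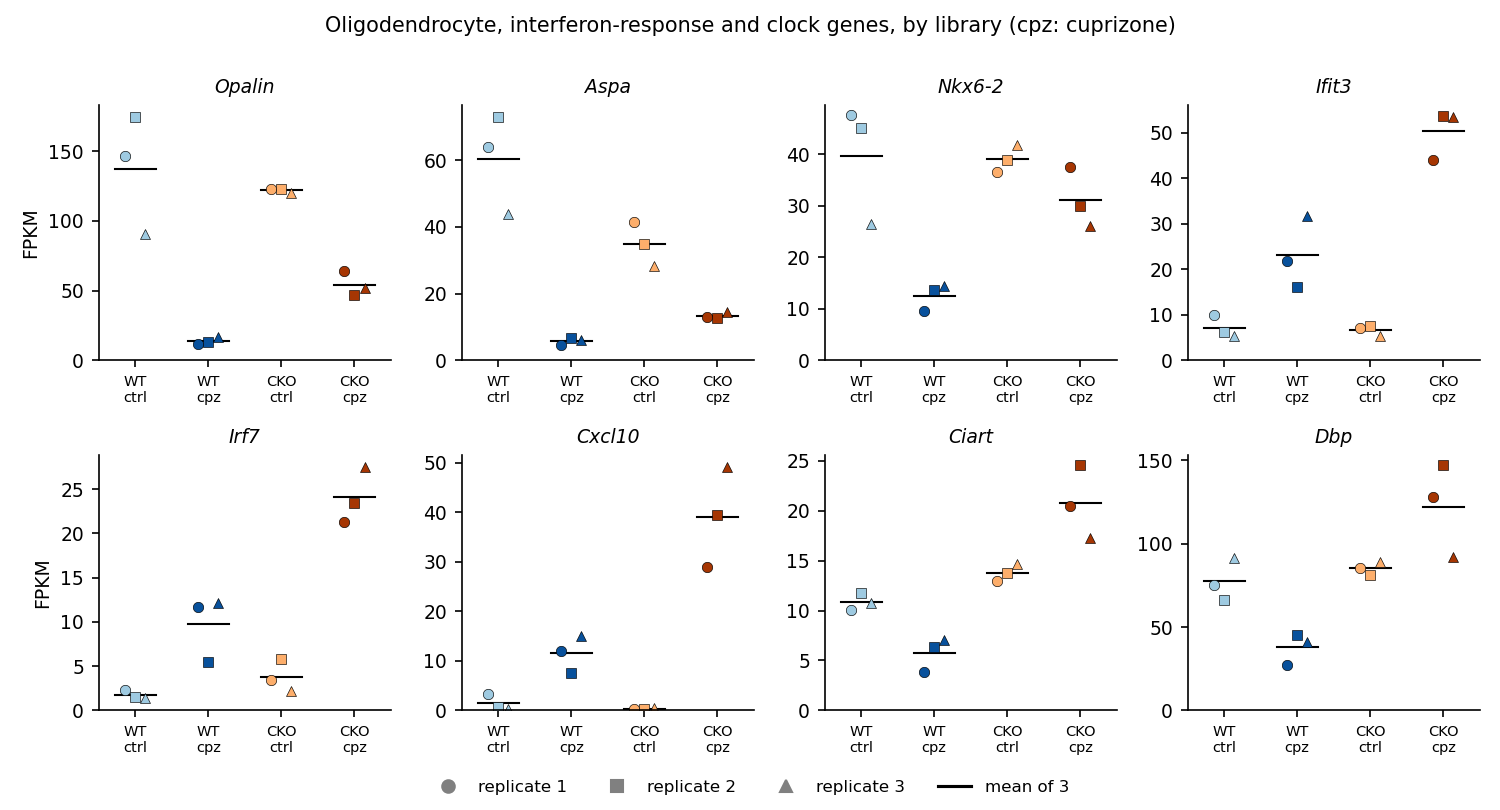
FPKM of 3 oligodendrocyte genes (Opalin, Aspa, Nkx6-2), 3 interferon-response genes (Ifit3, Irf7, Cxcl10) and 2 clock genes (Ciart, Dbp) in each of the 12 libraries, by group (circle, square and triangle for replicates 1, 2 and 3, line for the mean of 3). In all 8 genes the 3 AHR CKO cuprizone libraries lie above the 3 WT cuprizone libraries. For Opalin both lie below the control libraries, at 11.8 to 16.9 and 46.6 to 64.2 FPKM.

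Some genes of mature oligodendrocytes were higher in AHR CKO than in WT under cuprizone, while most myelin genes did not pass. Of 23 tested markers of mature oligodendrocytes, 5 passed as higher and 2 on both scales (Aspa and Nkx6-2), with a median of 0.22. Of 14 structural myelin genes, 2 passed as higher and 1 on both scales (Opalin), with a median of 0.41. Among all genes tested 9.35% passed as higher, and 2.39% on both scales. In control tissue the medians had the opposite sign. There 7 of the mature and 2 of the structural genes passed as lower in AHR CKO and 0 and 0 as higher, with medians of -0.51 and -0.47, where 4.78% of all genes passed as lower. After length correction these control medians were -0.60 and -0.54. Over all genes that correction brought the 835 control calls to 57, and without single libraries the deposited values gave 4 to 1421. The myelin lipid enzymes (14 tested) and the genes of differentiating oligodendrocytes (14 tested) had 0 calls in limma's test, with medians of 0.085 and -0.15. At an unadjusted p under 0.05, 1 and 1 of the former and 1 and 3 of the latter were higher and lower. Removing WT CPZ1, CPZ2 or CPZ3 left 3, 4 and 5 calls, and removing AHR CKO CPZ1, CPZ2 or CPZ3 left 3, 4 and 8 in the mature oligodendrocyte list.

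Opalin, a membrane protein of mature oligodendrocytes (chr19:41061710-41077113, minus strand), was listed at 11.8, 13.1 and 16.9 FPKM in WT and 64.2, 46.6 and 51.9 FPKM in AHR CKO cuprizone libraries. The lowest AHR CKO library was well above the highest WT library, and both groups were below control tissue, which was at 147, 175 and 90.6 FPKM in WT and 123, 123 and 120.1 in AHR CKO. The means were 13.9 ± 2.68 in WT and 54.2 ± 9.03 FPKM in AHR CKO (± SD, n = 3 each), a 3.89-fold higher level (log2 difference 1.89, standard error 0.21, adjusted p = 0.00124; after length correction 1.82 with adjusted p = 0.00135). Aspa, the enzyme that splits N-acetylaspartate for myelin lipids, was at 4.65, 6.58 and 5.99 FPKM in WT and 13, 12.8 and 14.4 FPKM in AHR CKO cuprizone libraries (log2 difference 1.1, adjusted p = 0.00554, and 1.15 with adjusted p = 0.00667 after length correction). Its order was reversed in control tissue, where WT was at 64.0, 73.0 and 43.9 FPKM and AHR CKO at 41.4, 34.8 and 28.3. Nkx6-2, a transcription factor of myelinating oligodendrocytes, was at 9.66, 13.6 and 14.4 FPKM in WT and 37.6, 29.9 and 26.1 FPKM in AHR CKO cuprizone libraries (log2 difference 1.25, adjusted p = 0.00570, and 1.05 with adjusted p = 0.0124 after length correction). These 3 calls held without any 1 library, and in corrected values those of Opalin and Aspa did, while Nkx6-2 reached an adjusted p of 0.0559. The interaction passed for Opalin (2.01, adjusted p = 0.0460) and Aspa (1.86, adjusted p = 0.0392).

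Mbp and Mog, structural genes of myelin, gave no call. Mbp, the basic protein that compacts myelin, was at 2053, 2402 and 2423 FPKM in WT and 2832, 2966 and 3428 FPKM in AHR CKO cuprizone libraries (log2 difference 0.42, adjusted p = 0.157). The 3 AHR CKO libraries of Mbp were above the 3 WT libraries, but in control tissue the 3 WT libraries alone ranged from 6000 to 10910 FPKM. Mog, a protein of the outer surface of myelin, was at 28.2, 28.6 and 42.7 FPKM in WT and 42.6, 49.0 and 40.2 FPKM in AHR CKO cuprizone libraries (log2 difference 0.42, adjusted p = 0.169), and its groups overlapped. Mag, an adhesion molecule of the inner myelin layer, was at 70.8, 69.7 and 92.4 FPKM in WT and 103, 126 and 119.5 FPKM in AHR CKO cuprizone libraries (log2 difference 0.58, adjusted p = 0.0391, and 0.47 with adjusted p = 0.109 after length correction). Its groups did not overlap, but it passed as deposited only and not without WT Ctrl1, WT CPZ1 or CPZ2, AHR CKO Ctrl1 or Ctrl2 or AHR CKO CPZ1, CPZ2 or CPZ3 (adjusted p up to 0.114). Klk6, a secreted protease of oligodendrocytes, was at 0.966, 1.53 and 3.94 FPKM in WT and 5.30, 5.11 and 6.03 FPKM in AHR CKO cuprizone libraries (log2 difference 1.15, adjusted p = 0.0162, and 0.87 with adjusted p = 0.0707 after length correction), also as deposited only and not without WT CPZ1 or AHR CKO CPZ1 (adjusted p up to 0.0554). Of 15 precursor genes, 3 passed as lower, all on both scales: the matrix protein Tnr, at 13.2, 9.86 and 10.4 FPKM in WT and 2.63, 3.71 and 5.53 FPKM in AHR CKO cuprizone libraries (log2 difference -1.33, adjusted p = 0.00376, and -0.91 with adjusted p = 0.00639 after length correction), the xylosyltransferase Xylt1 (log2 difference -1.17) and the receptor phosphatase Ptprz1 (-0.81). The Tnr groups did not overlap, and the call of Ptprz1 was lost without AHR CKO CPZ1 (adjusted p = 0.0590). In fits without WT CPZ1, CPZ2 or CPZ3 there were 3, 3 and 3 calls, and without AHR CKO CPZ1, CPZ2 or CPZ3 2, 3 and 5 in the precursor list. After length correction the precursor list had 2 higher and 3 lower calls, and its median went from -0.11 to 0.065. Zfp536, a repressor of differentiation, was lower as well (log2 difference -0.72, adjusted p = 0.0167), but did not pass without WT CPZ3 or AHR CKO CPZ1 (adjusted p up to 0.0721).

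Cholesterol for new myelin is made in the tissue, under control of SREBP2. Against 9.35%, 11.1% and 2.39% of all genes tested, 8 of 24 genes passed as higher, 1 as lower and 2 as higher on both scales. The median was 0.24 as deposited and 0.18 after correction. Leaving out WT CPZ1, CPZ2 or CPZ3 gave 2 higher and 0 lower, 7 higher and 1 lower, and 3 higher and 0 lower calls, and leaving out AHR CKO CPZ1, CPZ2 or CPZ3 gave 1 higher and 0 lower, 2 higher and 0 lower, and 7 higher and 1 lower. The length-corrected values gave 2 calls, and 0 to 4 when 1 cuprizone library was left out. With TPM the list had 4 higher and 1 lower calls. Insig1, the brake of sterol synthesis that SREBP2 induces, was at 12.9, 15.7 and 14.7 FPKM in WT and 27.2, 24.0 and 21.5 FPKM in AHR CKO cuprizone libraries (log2 difference 0.71, adjusted p = 0.00565, and 0.63 with adjusted p = 0.0121 after length correction). The Insig1 groups did not overlap. Of 20 genes of lipid efflux and storage, 2 passed as higher and 2 as lower on both scales. Pltp, which moves phospholipids between lipoproteins, was at 58.4, 42.6 and 47.9 FPKM in WT and 88.3, 69.2 and 95.3 FPKM in AHR CKO cuprizone libraries (log2 difference 0.75, adjusted p = 0.00784, and 0.60 with adjusted p = 0.0295 after length correction), and Fabp5, a fatty acid carrier, at 113, 122 and 107 FPKM in WT and 169, 166 and 157 FPKM in AHR CKO cuprizone libraries (log2 difference 0.52, adjusted p = 0.00675, and 0.49 with adjusted p = 0.0116 after length correction). Every AHR CKO library was above every WT library in both. Without WT CPZ1, CPZ2 or CPZ3 the counts were 2 higher and 0 lower, 3 higher and 3 lower, and 2 higher and 1 lower, and without AHR CKO CPZ1, CPZ2 or CPZ3 they were 2 higher and 0 lower, 2 higher and 0 lower, and 2 higher and 4 lower. Mylip, a ubiquitin ligase, was at 21.1, 13.4 and 13.7 FPKM in WT and 8.33, 9.72 and 11.3 FPKM in AHR CKO cuprizone libraries (log2 difference -0.64, adjusted p = 0.0210) and did not pass without WT CPZ1 or AHR CKO CPZ1 or CPZ2 (adjusted p up to 0.0907).

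Astrocyte genes of transport were lower in part. Against 11.1%, 9.35% and 4.06% of all genes tested, 5 of 18 genes passed as lower, 1 as higher and 3 as lower on both scales. These were the glutamate transporter Slc1a2, at 359, 356 and 334 FPKM in WT and 146, 227 and 219 FPKM in AHR CKO cuprizone libraries (log2 difference -0.85, adjusted p = 0.00707, and -0.44 with adjusted p = 0.0280 after length correction), the gap junction gene Gjb6, at 52.2, 49.2 and 45.4 FPKM in WT and 37.6, 34.0 and 33.8 FPKM in AHR CKO cuprizone libraries (log2 difference -0.47, adjusted p = 0.00995, and -0.64 with adjusted p = 0.00376 after length correction), and the glutamine synthetase Glul (log2 difference -0.41). No AHR CKO library of Slc1a2 or Gjb6 reached a WT library, and both calls held without any 1 library. In corrected values that of Gjb6 held and that of Slc1a2 did not (adjusted p up to 0.0850). Glul did not pass without WT CPZ1, CPZ2 or CPZ3 or AHR CKO CPZ1, CPZ2 or CPZ3 (adjusted p up to 0.0764). With WT CPZ1, CPZ2 or CPZ3 removed there were 1 higher and 3 lower, 1 higher and 4 lower, and 1 higher and 4 lower calls, and with AHR CKO CPZ1, CPZ2 or CPZ3 removed 1 higher and 3 lower, 0 higher and 3 lower, and 1 higher and 3 lower. Of 21 genes of reactive astrocytes only Hspb1, described above, passed on both scales.

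Neuronal genes passed in both directions. Of 21 excitatory synapse genes, 6 passed as lower and 4 on both scales. The count became 4, 7 and 3 when WT CPZ1, CPZ2 or CPZ3 was left out, and 2, 5 and 6 when AHR CKO CPZ1, CPZ2 or CPZ3 was. After length correction the list had 4 calls, and 0 to 5 without single cuprizone libraries. Grin2b, an NMDA receptor subunit of 24060 nt, was at 5.02, 2.28 and 3.15 FPKM in WT and 0.378, 0.593 and 0.839 FPKM in AHR CKO cuprizone libraries (log2 difference -1.45, adjusted p = 0.00735, and -0.99 with adjusted p = 0.0377 after length correction). The groups did not overlap. Of 19 axonal genes, 4 passed as higher and 4 as lower, and after correction the tubulin Tubb3 (log2 difference 0.64, adjusted p = 0.0115) and the neurofilament Nefh (log2 difference 0.81, adjusted p = 0.0192) also passed. Nefh did not pass without WT CPZ1 or AHR CKO CPZ1 (adjusted p up to 0.0580). Removing WT CPZ1, CPZ2 or CPZ3 left 2 higher and 4 lower, 4 higher and 4 lower, and 3 higher and 3 lower calls, and removing AHR CKO CPZ1, CPZ2 or CPZ3 left 2 higher and 2 lower, 3 higher and 3 lower, and 6 higher and 3 lower. Map1b, a microtubule protein of 11808 nt, lost its call and changed sign after correction (log2 difference -0.40, adjusted p = 0.00794, and 0.014 with adjusted p = 0.925 after length correction). Pvalb, a marker of fast-spiking interneurons, was at 60.5, 59.0 and 73.1 FPKM in WT and 134, 116 and 90.3 FPKM in AHR CKO cuprizone libraries (log2 difference 0.80, adjusted p = 0.00735, and 0.47 with adjusted p = 0.0411 after length correction), and its groups did not overlap. The sums of the neuronal lists overlapped between the genotypes, with excitatory genes at 3873 to 5160 FPKM in WT and 4129 to 5103 in AHR CKO. The striatal sums given above were higher in 2 of the 3 AHR CKO libraries than in any WT library, and their part in these values was not tested.

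Of 10 genes of pericytes and smooth muscle, 4 passed as higher and 1 as lower, and 3 and 1 did so on both scales, against 20.4% of all genes tested as deposited and 6.45% on both scales. In fits without WT CPZ1, CPZ2 or CPZ3 there were 4 higher and 0 lower, 3 higher and 1 lower, and 3 higher and 0 lower calls, and without AHR CKO CPZ1, CPZ2 or CPZ3 3 higher and 0 lower, 3 higher and 0 lower, and 3 higher and 1 lower. Vtn, the matrix protein vitronectin, was at 33.0, 36.5 and 35.3 FPKM in WT and 68.7, 57.5 and 68.5 FPKM in AHR CKO cuprizone libraries (log2 difference 0.87, adjusted p = 0.00277, and 0.64 with adjusted p = 0.00667 after length correction). Mcam, an adhesion molecule of mural cells, was at 7.12, 7.27 and 7.30 FPKM in WT and 14.4, 15 and 19.6 FPKM in AHR CKO cuprizone libraries (log2 difference 1.06, adjusted p = 0.00554, and 1.02 with adjusted p = 0.00820 after length correction). Both were higher in every AHR CKO library than in any WT library, as was the potassium channel Kcnj8 (log2 difference 0.81), and these 3 calls held without any 1 library on both scales. Rgs5, a pericyte regulator of G proteins, was at 30.7, 27.2 and 29.6 FPKM in WT and 11.4, 16.6 and 21.2 FPKM in AHR CKO cuprizone libraries (log2 difference -0.83, adjusted p = 0.0226) and did not pass without WT CPZ1 or CPZ3 or AHR CKO CPZ1 or CPZ2 (adjusted p up to 0.0950). Of 20 endothelial genes 1 passed as higher and 4 as lower, and 1 as lower on both scales, the lipid transporter Mfsd2a (log2 difference -0.34, adjusted p = 0.0227), which did not pass without WT CPZ1 or AHR CKO CPZ1 or CPZ2 (adjusted p up to 0.0861). Leaving out WT CPZ1, CPZ2 or CPZ3 gave 0 higher and 2 lower, 1 higher and 3 lower, and 0 higher and 3 lower calls, and leaving out AHR CKO CPZ1, CPZ2 or CPZ3 gave 0 higher and 0 lower, 1 higher and 2 lower, and 0 higher and 4 lower. Of 16 fibroblast genes 1 passed on both scales, Col1a1, a collagen chain, at 1.64, 0.918 and 1.38 FPKM in WT and 2.59, 1.78 and 2.89 FPKM in AHR CKO cuprizone libraries (log2 difference 0.56, adjusted p = 0.0250). It did not pass without WT CPZ2 or CPZ3 or AHR CKO CPZ1 or CPZ3 (adjusted p up to 0.0916). Ependymal markers summed to 76.8 to 131 FPKM in WT and 138 to 175 in AHR CKO, and 2 of 12 passed as higher, none after correction.

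Among genes that passed on both scales the largest decreases were those of the haemoglobin alpha chains. Hba-a2 was listed at 21.4, 17.2 and 37.8 FPKM in WT and 0.137, 0.0176 and 0.00315 FPKM in AHR CKO cuprizone libraries (log2 difference -4.58, adjusted p = 0.00117, and -4.91 with adjusted p = 0.000672 after length correction). Hba-a1, its near-identical copy, was at 30.7, 210.4 and 132 FPKM in WT and 3.15, 28.4 and 0.827 FPKM in AHR CKO cuprizone libraries (log2 difference -3.99, adjusted p = 0.0113), and did not pass without AHR CKO CPZ1 (adjusted p = 0.0501). The sum of both was 150 ± 89.5 FPKM in WT and 10.8 ± 15.3 in AHR CKO, and that of the beta chains Hbb-b1 and Hbb-b2 was 187 ± 103 and 10.8 ± 13.1 (mean ± SD, n = 3 each). The genotypes differed in the same direction in control tissue, with alpha-chain sums of 112 ± 27.5 FPKM in WT and 4.96 ± 1.51 in AHR CKO. These are genes of red blood cells, and the share of blood in each sample was not tested.

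Further large increases came from genes of varied function. The genes of largest change, up or down, were picked only among those whose cuprizone groups did not overlap. The lack of overlap given for them is therefore a condition of the choice. Tnnt1, a troponin of slow muscle (chr7:4504570-4516382, minus strand), was listed at 1.09, 1.64 and 1.39 FPKM in WT and 16.1, 8.18 and 9.02 FPKM in AHR CKO cuprizone libraries (log2 difference 2.30, adjusted p = 0.00195, and 1.98 with adjusted p = 0.00438 after length correction). It was at 1.58, 1.14 and 2.69 FPKM in WT and 5.74, 9.83 and 4.77 in AHR CKO control tissue, and it did not overlap between the genotypes in either treatment. Tnni1, another slow troponin, was at 1.68, 5.0 and 3.54 FPKM in WT and 10.8, 8.68 and 7.85 FPKM in AHR CKO cuprizone libraries (log2 difference 1.26, adjusted p = 0.00925), whereas the groups overlapped in control tissue. Ptgds, the prostaglandin D synthase of oligodendrocytes, choroid plexus and meninges, was at 199.5, 145 and 158 FPKM in WT and 796, 326 and 536 FPKM in AHR CKO cuprizone libraries (log2 difference 1.64, adjusted p = 0.00460, and 1.34 with adjusted p = 0.0110 after length correction). Cirbp, an RNA-binding protein induced by mild cold, was at 38.5, 45.3 and 38.9 FPKM in WT and 136, 102 and 90.3 FPKM in AHR CKO cuprizone libraries (log2 difference 1.38, adjusted p = 0.000831, and 1.09 with adjusted p = 0.00123 after length correction). Tgm1, a transglutaminase, was at 5.15, 3.85 and 4.24 FPKM in WT and 7.65, 13.7 and 21 FPKM in AHR CKO cuprizone libraries (log2 difference 1.39, adjusted p = 0.00733, and 1.32 with adjusted p = 0.0123 after length correction) and under 0.25 FPKM in all control libraries. Every AHR CKO library was above every WT library in these 5 genes.

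Serpinb1a, an inhibitor of neutrophil proteases, was at 1.0, 0.998 and 3.49 FPKM in WT and 5.98, 5.96 and 7.25 FPKM in AHR CKO cuprizone libraries (log2 difference 1.49, adjusted p = 0.00654). Cyr61, a secreted matrix protein, was at 6.10, 8.14 and 11.4 FPKM in WT and 17.7, 19.9 and 32.8 FPKM in AHR CKO cuprizone libraries (log2 difference 1.34, adjusted p = 0.00703). H1fx, a linker histone, was at 11.2, 17.3 and 9.76 FPKM in WT and 37.8, 50.3 and 28.4 FPKM in AHR CKO cuprizone libraries (log2 difference 1.54, adjusted p = 0.00460). The groups did not overlap in these 3 genes, nor in Cstad (log2 difference 1.69, adjusted p = 0.00376), a gene low in all libraries and listed at 0 in WT CPZ2. Clec3b, the plasminogen-binding protein tetranectin, was at 2.02, 0.992 and 0.661 FPKM in WT and 16.6, 3.68 and 4.33 FPKM in AHR CKO cuprizone libraries (log2 difference 1.82, adjusted p = 0.0154, and 1.49 with adjusted p = 0.0469 after length correction). Its AHR CKO values were spread more than 4-fold, with CPZ1 highest, and its call was lost without WT CPZ3 (adjusted p = 0.0560). Junb and Jund, subunits of the AP-1 factor, were higher by 0.89 and 0.93 on the log2 scale and were the 2 of 18 immediate early genes that passed on both scales. In control tissue 11 of this list passed as higher.

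The large decreases were mostly long transcripts, and they are given with their lengths for that reason. Dok6, an adaptor of receptor tyrosine kinases (10099 nt), was at 18.8, 12.2 and 18.9 FPKM in WT and 1.20, 3.49 and 3.26 FPKM in AHR CKO cuprizone libraries (log2 difference -2.32, adjusted p = 0.00195, and -1.94 with adjusted p = 0.00203 after length correction). Kcnk9, a two-pore potassium channel (12300 nt), was at 14.8, 19.2 and 11.1 FPKM in WT and 1.83, 4.45 and 4.19 FPKM in AHR CKO cuprizone libraries (log2 difference -1.87, adjusted p = 0.00554, and -1.45 with adjusted p = 0.0121 after length correction). Uhmk1, a serine kinase (7864 nt), was at 17.3, 14 and 17.7 FPKM in WT and 3.27, 4.90 and 4.84 FPKM in AHR CKO cuprizone libraries (log2 difference -1.71, adjusted p = 0.00357, and -1.39 with adjusted p = 0.00515 after length correction). In these genes the AHR CKO libraries stayed below every WT library, and length correction made each difference smaller. The same order and the same shift held for Lmbrd2 (log2 difference -1.62 as deposited and -1.30 after correction) and for the peptidase Lnpep (-1.57 and -1.15). It also held for Ppp1r12b (-1.52 and -1.17), Igsf9b (-1.49 and -1.04), Frrs1l (-1.45 and -1.19), the ubiquitin ligase Mib1 (-1.44 and -1.05) and the ubiquitin ligase Cbl (-1.43 and -1.02). These 10 calls held without any 1 library in the deposited values. In corrected values 2 did not, Kcnk9 (adjusted p up to 0.0512) and Lmbrd2 (up to 0.0524).

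Several lists lost most or all of their calls after length correction. Of 37 nuclear-encoded subunits of the respiratory chain, 15 passed as higher and 0 on both scales, and the median went from 0.39 to 0.14. Without WT CPZ1, CPZ2 or CPZ3 the counts were 1, 13 and 2, and without AHR CKO CPZ1, CPZ2 or CPZ3 they were 0, 5 and 28. In TPM 7 higher and 0 lower passed. Of 44 ribosomal protein genes 0 passed in limma's test (10 higher and 0 lower at an unadjusted p under 0.05), and the median changed sign from 0.26 to -0.046. Of 18 NRF2 targets and antioxidant enzymes, 4 passed as higher and 0 on both scales. With WT CPZ1, CPZ2 or CPZ3 removed there were 0 higher and 0 lower, 3 higher and 0 lower, and 0 higher and 0 lower calls, and with AHR CKO CPZ1, CPZ2 or CPZ3 removed 0 higher and 0 lower, 3 higher and 0 lower, and 3 higher and 2 lower. Cox5b, a subunit of cytochrome c oxidase (865 nt), was at 535, 656 and 571 FPKM in WT and 1141, 835 and 711 FPKM in AHR CKO cuprizone libraries (log2 difference 0.59, adjusted p = 0.0249, and 0.25 with adjusted p = 0.193 after length correction), without overlap as deposited. Sod1, the copper-zinc superoxide dismutase, did pass on both scales, at 387, 425 and 411 FPKM in WT and 774, 602 and 567 FPKM in AHR CKO cuprizone libraries (log2 difference 0.65, adjusted p = 0.00858, and 0.68 with adjusted p = 0.0153 after length correction), as did the copper chaperone Cox17 (log2 difference 0.59 and 0.60). For both genes the correction used the longest coding transcript, which for Cox17 is 3690 nt. Whether shorter forms, which the correction would lower more, made up these values was not tested. The proton pump gave 3 higher and 1 lower of 15, and its catalytic subunit Atp6v1a was the 1 to pass on both scales, at 118, 100.5 and 119 FPKM in WT and 84.5, 84.2 and 87.7 FPKM in AHR CKO cuprizone libraries (log2 difference -0.39, adjusted p = 0.0105, and -0.33 with adjusted p = 0.0220 after length correction). The count became 0 higher and 1 lower, 3 higher and 1 lower, and 0 higher and 1 lower when WT CPZ1, CPZ2 or CPZ3 was left out, and 0 higher and 1 lower, 0 higher and 1 lower, and 5 higher and 1 lower when AHR CKO CPZ1, CPZ2 or CPZ3 was.

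The largest single differences that the correction ended were those of Dgkh (log2 difference -1.23 to -0.79, adjusted p = 0.0710), Gatad2b (-1.14 to -0.84, 0.0683), Samd12 (-1.11 to -0.75, 0.0646), Gpr26 (-1.09 to -0.68, 0.0540) and Nebl (-1.08 to -0.76, 0.0656) among lower genes. Among higher genes they were Vstm2l (1.41 to 1.12, 0.0540), Ninj2 (1.52 to 1.19, 0.0607), Nrtn (1.54 to 1.22, 0.0561), Abhd11os (1.61 to 1.28, 0.0684) and Eno1b. Their signs were the same on both scales. Eno1b, nearly identical to Eno1 and therefore uncertain, was listed at 0.198, 41.4 and 0.252 FPKM in WT and 193, 149 and 138 FPKM in AHR CKO cuprizone libraries (log2 difference 5.32, adjusted p = 0.0365, and 0.0715 after correction). It ranged from 0.164 to 235 FPKM across control libraries.

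The genotype difference in control tissue had much in common with that under cuprizone. In control tissue 835 genes passed (6.22%), 193 higher (1.44%) and 642 lower (4.78%). Of the 2744 genes called under cuprizone, 91.58% had the same sign in control tissue, against 74.6% of all genes, and after length correction 86.95% of the 866 did, against 68.86%. The contrasts share no library, but they share the length trend and the estimate of the spread. Of the 866 genes, 170 also passed in control tissue. The control count rested on single libraries: it was 8 and 17 without WT Ctrl1 or Ctrl2, 7 and 4 without AHR CKO Ctrl2 or Ctrl3, 134 and 239 without WT CPZ3 or AHR CKO CPZ2, and 1421 without AHR CKO CPZ1.

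The test of the difference between both contrasts, the interaction of genotype and cuprizone, passed for 5 of 13435 genes (0.0372%), with 1291 (9.61%) at an unadjusted p under 0.05. They were Hspa5, Hspa1b, Aspa and Opalin, given above, and Egr2, an immediate early zinc finger factor. Egr2 was at 6.11, 5.52 and 7.98 FPKM in WT and 5.93, 7.55 and 8.86 FPKM in AHR CKO cuprizone libraries and at 1.20, 1.09 and 1.0 FPKM in WT and 7.05, 5.89 and 6.02 in AHR CKO control libraries (interaction -1.64, standard error 0.21, adjusted p = 0.0323). Its WT control libraries stood apart from the other 9, which overlapped. After length correction 9 genes passed (0.0675%). The list then held Calr (-0.92, adjusted p = 0.0332), Pdia6 (-0.95, 0.0332), Manf (-0.95, 0.0425) and Fosl2 (-1.23, 0.0410), an AP-1 subunit, as well, so that 4 of the 9 belong to the chaperone list of the endoplasmic reticulum. In the deposited values the 10 genes of smallest p also held Fbxo7 (interaction 1.04, adjusted p = 0.0657), Nr1d1 (1.18, 0.0657) and Cldn14 (1.09, 0.0668), which did not pass. The count of 5 fell to 0 without WT Ctrl1, any 1 AHR CKO control library, or AHR CKO CPZ1 or CPZ2, and was 1 without WT Ctrl2, WT CPZ1 or AHR CKO CPZ3, 37 without WT CPZ2 and 99 without WT Ctrl3.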

How the data were processed

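Total RNA of mouse corpus callosum was sequenced in 12 libraries, 3 per group. The RNeasy and SMARTER mRNA-Seq kits were used, per the labels' protocols. The deposited values are FPKM from build GRCm38 (mm10), as the submitters' processing notes list. The sources used here do not name the aligner, quantifier, annotation or filters. FPKM divides by transcript length, so a length bias between libraries stays in the values. FPKM keeps no read counts, and no interval for counting error is given.

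Genes with at least 1 FPKM in at least 3 of the 6 cuprizone libraries were tested on log2(FPKM + 1), which understates changes of low genes. Limma 3.58.1 (R 4.3.3) was fitted over all 12 libraries with 4 groups as terms, a trend in the prior variance and Benjamini-Hochberg adjustment within each comparison, at a threshold of 0.05. The comparisons were AHR CKO minus WT under cuprizone, the same in control tissue, and their difference. An exact permutation test of 3 against 3 libraries cannot go below p = 0.1. The fit was also run on artificial data with 200 of 13435 genes changed by known folds. There it recovered 87.9% of 2-fold and 98.9% of 4-fold changes, with 3 false calls among 189. Whether these rates hold for the deposited values, which carry a length trend between the genotypes, was not tested. For length correction, each library's deviation from the gene mean was regressed on a natural spline (5 degrees of freedom) of log2 transcript length, and the fitted trend was subtracted. The length was that of the gene's longest coding transcript in GENCODE M21, or of its longest transcript where none is coding. This may not be the form expressed in the tissue. In 25 rows the gene name reads as a date, and these rows are named nowhere here.

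The members and the gene lists were chosen with earlier results of these data known. Of 1004 symbols in 53 lists 946 were listed (5 by an earlier symbol) and 889 tested. A list of red blood cell genes was added after values were seen. Named genes are those of the AHR pathway fixed by name with Cx3cr1, the 15 largest increases and decreases that passed on both scales without overlap, the 5 largest each way that length correction ended, up to 4 called genes of smallest adjusted p per list (or the 2 most abundant where none passed), and the 10 genes of smallest interaction p. Apoe, Atf3, Atf6, C1qa, Canx, Cd74, Cd8a, Clock, Creld2, Cry1, Csf1r, Ddit3, Dnajc3, Eno1, Fosl2, Glul, Hbb-b1, Hbb-b2, Hsp90b1, Hspa1a, Hspd1, Hspe1, Hyou1, Isg15, Mbp, Mog, Nefh, P2ry12, Pdia3, Pdia4, Per1, Per3, Sdf2l1, Sel1l, Tmem119, Tor3a and Trem2 were named after their values were seen. Some genes that the rule names are not reported here. Alternatives covered the pseudocount, filters, scaling to TPM, median-of-ratios and quantile scaling, length and GC correction, sample weights, the prior variance, replicate blocks, fits to the compared groups only, a fold minimum and leaving out each library. Promoter windows are from RefSeq (GRCm38.p6). Scripts ran in Python 3.11.15 with numpy 2.4.6, pandas 2.3.3 and scipy 1.17.1.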

Additional observations from a re-analysis of the deposited data

Results flagged for a closer look

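The genotype difference under cuprizone differed from that in control tissue by limma's interaction test in 5 genes. On the log2(FPKM + 1) scale, with Benjamini-Hochberg adjusted p-values, the difference between both was -1.18 for Hspa5 (adjusted p = 0.0272), -1.64 for Egr2 (adjusted p = 0.0323) and -2.08 for Hspa1b (adjusted p = 0.0392). It was 1.86 for Aspa (adjusted p = 0.0392) and 2.01 for Opalin (adjusted p = 0.0460). In Hspa5 and Hspa1b the 3 WT cuprizone libraries stood above the other 9, in Egr2 the 3 WT control libraries stood below the other 9, and in Aspa and Opalin both cuprizone groups lay below both control groups. No groups of more than 3 libraries exist here, so single libraries were not tested as outliers.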

How the results depend on the processing

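Of the 160 named genes that passed, 5 changed sign under an alternative. Map1b changed sign after length correction (0.014, also with a replicate block and with only the groups compared), after length and GC correction (0.015), and in length-corrected values without WT CPZ1 (0.035) or CPZ3 (0.020) or AHR CKO CPZ2 (0.0054) or CPZ3 (0.090). Gstp1 did so after length and GC correction (-0.0027) and in length-corrected values without WT CPZ2 (-0.11) or AHR CKO CPZ1 (-0.012). In length-corrected values Atp6v1g1 changed sign without WT CPZ3 (-0.015), S100a10 without AHR CKO CPZ3 (-0.032), and S100b without WT CPZ2 (-0.0047). Pf4 did not pass (-0.10) but passed as higher with sample weights (0.57). Of the 160, among 184 tested, 79 passed without each of the 12 libraries in turn, and 38 in length-corrected values without each of the 6 cuprizone libraries. The cause of these changes was not tested.

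The 2744 calls under cuprizone became 1110 after length correction (440 higher, 670 lower), 1001 after length and GC correction, 7984 with sample weights, 1161 with only the groups compared and 164 with a fold minimum of 2, and ran from 796 to 3322 without single libraries. The 1110 became 184 with only the groups compared and ran from 267 to 1362 without single libraries. The 835 calls in control tissue became 57, 47, 4480, 125 and 50 under the same 5 alternatives and ran from 4 to 1421. The 5 interaction calls became 1 with no filter, 9 after length correction, 10 after length and GC correction and 2602 with sample weights, and ran from 0 to 99. Under TPM scaling, which moved the median of all genes by -0.12, 635 were higher and 2347 lower, so 21.29% of calls were higher, against 45.77% as deposited and 39.64% after length correction. Of the list medians, those of the myelin lipid enzyme (-0.037), complement (-0.11), cytokine and NF-kB (-0.10), iron (-0.064), inhibitory neuron (-0.051) and growth factor (-0.054) lists turned negative, and that of the complement list also under quantile normalization (-0.14). Besides the lists given in the report, calls under TPM changed from 4 to 2 in the cytokine and NF-kB list and in the NRF2 list, from 2 to 1 in the structural myelin, MHC class I, reactive astrocyte, ependymal and fibroblast lists, from 1 to 2 in the complement and cell cycle lists and from 1 to 4 in the iron list. Under quantile normalization they changed from 15 to 6 in the respiratory chain list, from 4 to 0 in the NRF2 list, from 5 to 8 in the disease-associated microglia list, from 4 to 7 in the interferon signalling list, from 2 to 1 in the structural myelin list and from 1 to 2 in the cell cycle and growth factor lists.

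Same-numbered WT and AHR CKO cuprizone libraries deviated from their group means with correlations of -0.016, 0.155 and -0.098, and not every library correlated best with its own number. The labels do not say whether the numbers pair samples, and correlations over 3 libraries per group cannot decide it. With the replicate number as a block, limma called 1825 genes under cuprizone and 49 in control tissue, and with block and length correction 530 and 25. The interaction then had 0 calls in both, against 5 as deposited and 9 after length correction without the block. At an unadjusted p under 0.05 the interaction held 1291 genes in the deposited values without the block. The number of libraries and the missing read counts limit what could be detected for genes near 1 FPKM.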

Other observations

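Further immune lists gave few calls. The complement list, with the opsonins that tag debris, had 1 of 16 genes higher, C1ra, at 1.27, 1.0 and 0.927 FPKM in WT and 1.64, 1.88 and 2.62 FPKM in AHR CKO cuprizone libraries (log2 difference 0.55, adjusted p = 0.0326, and 0.50 with adjusted p = 0.0656 after length correction), which did not pass without WT CPZ1, CPZ2 or CPZ3 or AHR CKO CPZ1, CPZ2 or CPZ3 (adjusted p up to 0.101). C1qa, the recognition subunit made by microglia, was at 539, 359 and 405 FPKM in WT and 299, 378 and 463 FPKM in AHR CKO cuprizone libraries (log2 difference -0.19, adjusted p = 0.424), and its groups overlapped. In the MHC class II list 1 of 9 passed as lower, H2-Ob, a peptide-loading subunit, at 2.22, 1.30 and 1.48 FPKM in WT and 0.629, 0.899 and 1.08 FPKM in AHR CKO cuprizone libraries (log2 difference -0.50, adjusted p = 0.0393), which did not pass without WT Ctrl1 or Ctrl2, WT CPZ1 or CPZ3, AHR CKO Ctrl1 or Ctrl2 or AHR CKO CPZ1 or CPZ2 (adjusted p up to 0.148). Cd74, the chaperone of class II molecules, varied between libraries of 1 genotype, at 138, 34.1 and 134 FPKM in WT and 46.1, 99.7 and 119 FPKM in AHR CKO cuprizone libraries (log2 difference -0.073, adjusted p = 0.934), with WT CPZ2 lowest of the 6. Beside Cxcl10, 1 of 9 CXC chemokine genes passed, Cxcl12, which recruits precursor cells, as lower at 26.6, 25.4 and 28.4 FPKM in WT and 16.2, 17.4 and 24.4 FPKM in AHR CKO cuprizone libraries (log2 difference -0.47, adjusted p = 0.0327, and -0.28 with adjusted p = 0.164 after length correction), and it did not pass without WT CPZ1 or CPZ3 or AHR CKO CPZ1 or CPZ2 (adjusted p up to 0.134).

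Growth and metabolic lists were nearly without calls. Of 17 growth factor and receptor genes 1 passed, the death receptor Tnfrsf21, as lower at 46.2, 38.6 and 43.7 FPKM in WT and 30.0, 34.8 and 35.0 FPKM in AHR CKO cuprizone libraries (log2 difference -0.35, adjusted p = 0.0283), not without WT CPZ1 or CPZ3 or AHR CKO CPZ1 or CPZ2 (adjusted p up to 0.113). Of 15 TGF-beta genes none passed in limma's test, with 1 higher and 4 lower at an unadjusted p under 0.05 and a median log2 difference of -0.19. Of 13 p53 targets 2 passed as lower and Ccng1, a cyclin, on both scales, at 39.2, 42.9 and 40.0 FPKM in WT and 28.1, 28.5 and 34.9 FPKM in AHR CKO cuprizone libraries (log2 difference -0.41, adjusted p = 0.0155, and -0.42 with adjusted p = 0.0193 after length correction), not without AHR CKO CPZ1 or CPZ2 (adjusted p up to 0.0654). Of 22 glycolysis and lactate genes 1 passed as higher and 1 as lower, of 15 cell cycle genes 1 as lower and of 14 iron-handling genes 1 as higher, none of them on both scales.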
